A study of Mus musculus with 2 samples.

Results

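The genes described here carry the name Nduf, for subunits of NADH:ubiquinone oxidoreductase, which is respiratory complex I. They were taken as all non-control spots whose gene name in the array files begins with Nduf: 27 probes of 23 genes, out of 41174 probes with 38354 distinct names. The rule held 4 core subunit genes with 4 probes, 18 accessory subunit genes with 22 probes, and Ndufa4 with 1 probe. It held no assembly factor, since the array files list those under older names; they were added through current RefSeq symbols and are described apart.

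RNA came from interscapular brown fat of double knockout (DKO) mice, which lack nuclear receptor genes of the ROR family, Rora among them, and of wild-type (WT) mice. Each genotype was represented by 4 males on the C57BL/6 strain, between 2 and 3 months old, with tissue taken near circadian time 20. DKO and WT cRNA were hybridised together on 2 Agilent arrays with opposite dyes, so that DKO was red (Cy5) on the first and green (Cy3) on the second, and pairs of values below are given in that order. The sources used here do not say whether the RNA of the 4 mice was pooled or whether both arrays share an extract. The pair of arrays was therefore counted as 1 preparation per genotype, the SD is that between 2 arrays, and no p-value is given.

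Complex I takes electrons from NADH and passes them through flavin and iron-sulfur clusters to ubiquinone while pumping protons across the inner mitochondrial membrane. Its core subunits carry the redox centres and the proton channels and are shared with bacteria, accessory subunits surround the core and stabilise it, and assembly factors help to build the enzyme but are not part of it. Brown adipocytes are rich in mitochondria and let the proton gradient that complex I helps to make run down through Ucp1, which releases heat.

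The labels were checked first. A probe of Rora had normalised log2 intensities of 6.45 and 6.44 in DKO fat, against 6.86 and 6.80 in WT fat, a log2 difference of −0.38 ± 0.04 (SD, 2 arrays), and its other probe differed by −0.47 ± 0.10. The scanner software's own ratios, which carry no offset, put the same probes at −0.96 ± 0.07 and −1.52 ± 0.14. Both were lower in DKO on both arrays and still well above background there. Whether these probes lie in the deleted part of the gene is not given. The brown adipocyte gene Ucp1 had log2 intensities of 15.10 and 15.20 in DKO fat, against 14.37 and 14.46 in WT fat, so the transcript that marks brown fat was well above background in both. A probe was counted as measured if, on both arrays, its signal in DKO or in WT was well above background. The share of probe spots well above background was 85.4% and 77.6% in DKO and 80.0% and 80.2% in WT, and 32424 probes were measured.

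On the mean of both arrays, transcripts of complex I subunits differed little between DKO and WT brown fat. Of the 27 Nduf probes 26 were measured, covering all 23 genes, and all 26 were well above background in both genotypes on both arrays, with none saturated. Their mean log2 DKO over WT ran from −0.15 (Ndufs5) to 0.42 (Ndufa10), with a median of 0.03, beside 0.00 over all measured probes and 0.01 over the 3218 measured probes with an average log2 intensity of 9 or more, which are called bright here and include 25 of the 26. The Nduf median was 0.11 on the first array and −0.05 on the second, so its sign was not the same on both. In tissue as a whole, fewer cells of a type and less RNA per cell cannot be told apart.

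The counts of probes that kept their direction on both arrays were near those of the whole array. Of the 26 probes 6 (23.1%) were higher in DKO on both arrays, against 19.5% of all measured probes and 19.3% of bright ones. Another 5 (19.2%) were lower on both arrays, against 17.8% and 18.9%. With each array centred on its median and no correction for intensity, which moved the bright probes' own median to 0.14, those counts were 8 higher and 0 lower. The remaining 15 probes (57.7%) lay on opposite sides of 0 on the 2 arrays, as did 62.7% of all measured and 61.8% of bright probes.

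Differences of moderate size were then counted, as a mean of at least 0.32 on the log2 scale in either direction with both arrays on the same side of 0. In DKO 1 probe was higher by this rule (3.85%), against 1.18% of all measured and 4.94% of bright probes. No Nduf probe was lower by it, against 0.972% and 3.95%. None reached a 2-fold mean with 1.5-fold on each array, which 0.0987% of all measured and 0.559% of bright probes did upward and 0.0216% and 0.0622% downward. Whatever the arrays' sides, the mean lay within 0.32 of 0 for 25 of the 26 probes, as it did for 97.7% of all measured and 89.9% of bright probes. For 19 of the 26 probes (73.1%) the mean was smaller than its SD, as it was for 71.7% of all measured probes.

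**Figure D1:**
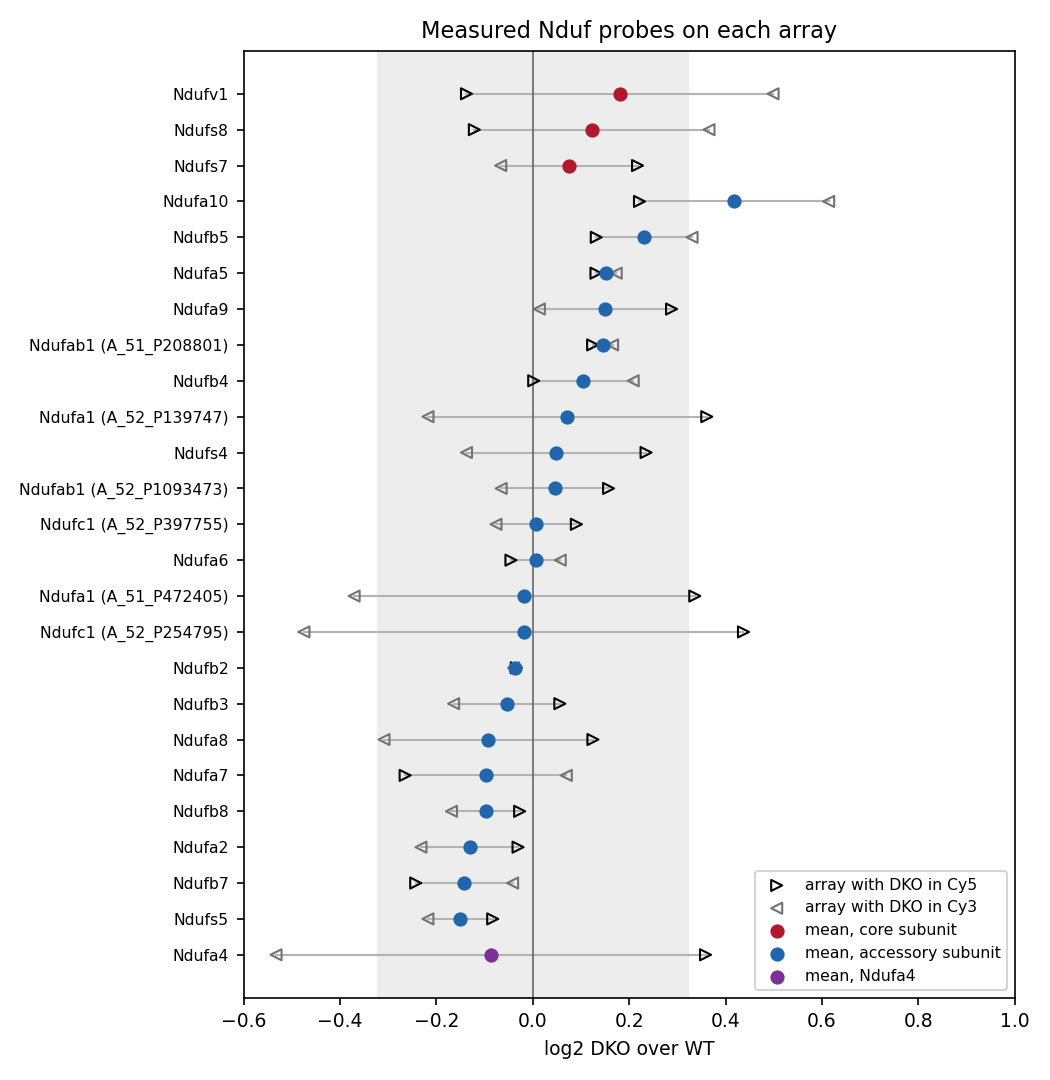
Log2 DKO over WT of 25 of the 26 measured Nduf probes, with triangles for the 2 arrays, filled circles for their mean coloured by class, and a grey band from −0.32 to 0.32. Ndufa10 is the only probe shown with a mean outside the band, and among those shown the brighter Ndufc1 probe has the widest gap between its arrays, at 0.44 and −0.47.

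The core subunits described one by one were those of 3 genes, all of the arm that reaches into the mitochondrial matrix. Ndufv1 holds the flavin that takes electrons from NADH, Ndufs8 carries iron-sulfur clusters, and Ndufs7 holds the last cluster before ubiquinone. The Ndufv1 probe had log2 intensities of 12.90 and 13.20 in DKO fat, against 13.04 and 12.71 in WT fat, which gave a log2 DKO over WT of −0.14 and 0.50 on the arrays and a mean of 0.18 ± 0.45. DKO was the lower genotype with DKO in Cy5 and the higher one with the dyes swapped, so the genotypes overlapped.

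The Ndufs8 probe had log2 intensities of 9.59 and 10.06 in DKO fat, against 9.71 and 9.69 in WT fat, a log2 difference of 0.12 ± 0.34. The Ndufs7 probe had 12.19 and 12.03 in DKO fat, against 11.97 and 12.10 in WT fat, a log2 difference of 0.08 ± 0.20. Again neither probe kept 1 direction, and each of the 3 means was smaller than its SD.

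**Figure D2:**
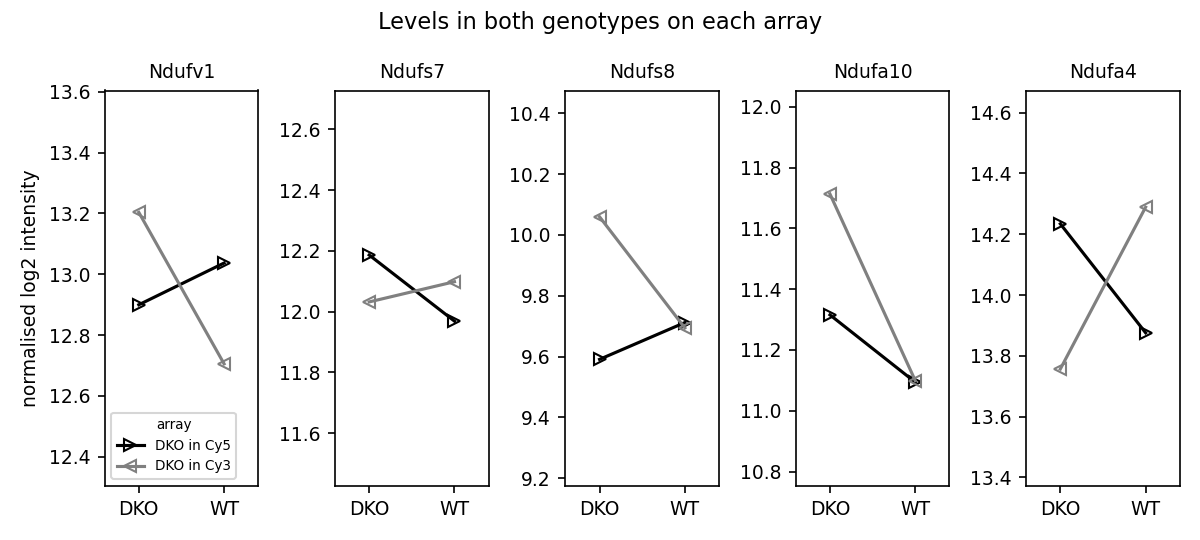
Normalised log2 intensity of 5 probes in DKO and WT fat, with black lines for the array with DKO in Cy5 and grey lines for the array with DKO in Cy3; every panel spans the same height on its axis, and levels are not comparable between probes. The lines cross or slope oppositely for Ndufv1, Ndufs7, Ndufs8 and Ndufa4, while both slope down towards WT for Ndufa10.

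Among the accessory subunits, Ndufa10 differed most. This subunit of the membrane arm is related in fold to nucleoside kinases. Its probe had log2 intensities of 11.32 and 11.71 in DKO fat, against 11.09 and 11.10 in WT fat. DKO was higher on both arrays, by 0.22 and 0.61, and the genotypes did not overlap. The mean was 0.42 ± 0.28, or 1.34-fold, and the scanner software's own ratio gave 0.43 ± 0.26.

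The other accessory probes above 0 on both arrays were smaller. Ndufb5, of the distal membrane arm, had log2 intensities of 9.49 and 9.76 in DKO fat, against 9.36 and 9.43 in WT fat, a log2 difference of 0.23 ± 0.14. Ndufa5, of the matrix arm, had 13.24 and 13.17 in DKO fat, against 13.11 and 13.00 in WT fat, a log2 difference of 0.15 ± 0.03. Ndufa9, which binds a nucleotide cofactor near the junction of the arms, came to 0.29 and 0.01 on the arrays, and Ndufb4, of the distal membrane arm, to 0.00 (just above 0) and 0.21, so that each mean rested on 1 array.

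Another 5 probes, all of accessory subunits, were below 0 on both arrays, by at most 0.15 on the mean. They were Ndufs5 (−0.15 ± 0.10), Ndufb7 (−0.14 ± 0.14), Ndufa2 (−0.13 ± 0.14), Ndufb8 (−0.10 ± 0.10) and Ndufb2 (−0.04 ± 0.00). Ndufs5 and Ndufb7 are small disulfide-bonded proteins on the intermembrane space side, and Ndufs5 had log2 intensities of 14.34 and 14.22 in DKO fat, against 14.43 and 14.44 in WT fat. Ndufa8, a relative of theirs on the same side, came to 0.12 and −0.31 on the arrays and averaged −0.09 ± 0.31. Ndufa7 (−0.10 ± 0.24), Ndufb3 (−0.05 ± 0.16) and Ndufa6 (0.01 ± 0.07) also changed sides between arrays, though a further Ndufa7 probe, listed under another name, was below 0 on both (−0.11 ± 0.00).

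A group of 4 genes had a second probe under the Nduf name. For Ndufab1, the mitochondrial acyl carrier protein that is also a complex I subunit, 1 probe read 0.12 and 0.17 and the other 0.16 and −0.07, with means of 0.14 ± 0.03 and 0.05 ± 0.16. Both probes of Ndufa1, a small membrane subunit, changed sides between arrays. They read 0.36 and −0.22 for 1 and 0.34 and −0.37 for the other, with means of 0.07 ± 0.41 and −0.02 ± 0.50. The brighter Ndufc1 probe, of another small membrane subunit, read 0.44 and −0.47 and averaged −0.02 ± 0.64, and the dimmer one read 0.09 and −0.08. For Ndufs4, whose loss in mice causes a fatal brain disease, 1 probe averaged 0.05 ± 0.26 and the other was not well above background in either genotype. Probes listed under other names added another value for Ndufab1 (0.00 ± 0.05) and for Ndufc1 (−0.10 ± 0.16), each on opposite sides of 0 on the arrays. RefSeq also lists loci named Ndufb4b, Ndufb4c, Ndufs5-ps and Ndufab1-ps, and their share of the signal on the probes of Ndufb4, Ndufs5 and Ndufab1 was not separated here.

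Ndufa4 was first assigned to complex I and is now counted with cytochrome c oxidase, complex IV. Its probe had log2 intensities of 14.23 and 13.76 in DKO fat, against 13.88 and 14.29 in WT fat, a log2 difference of 0.36 and −0.53 on the arrays. The direction changed between arrays, and the mean was −0.09 ± 0.63.

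Because the dyes were swapped, a probe that changes sides has by design the same brighter dye on both arrays, as the 15 did. Each dye direction had a single array, so an effect of dye and other differences between the arrays cannot be told apart. Turned to red over green, 10 of the 26 probes (38.5%) were above 0 on both arrays, against 32.5% of all measured and 29.4% of bright probes, and 5 (19.2%) were below 0 on both, against 30.2% and 32.4%. For complexes II to V those shares were 42.3% above and 19.2% below. The Nduf probes listed under other names had 34.8% above and 43.5% below. Across the 25 probes plotted the log2 DKO over WT of the 2 arrays had a Pearson correlation of −0.40, beside 0.10 across bright and −0.02 across all measured probes; the probes share both arrays and dyes, so this is a description. Probes that stood high in DKO on one array thus tended to stand low on the other. Over the 21 accessory probes alone the correlation was −0.19. It was −0.54 over the Nduf probes listed under other names and −0.27 over complexes II to V, both described below. A negative value was therefore not particular to the probes plotted.

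**Figure D3:**
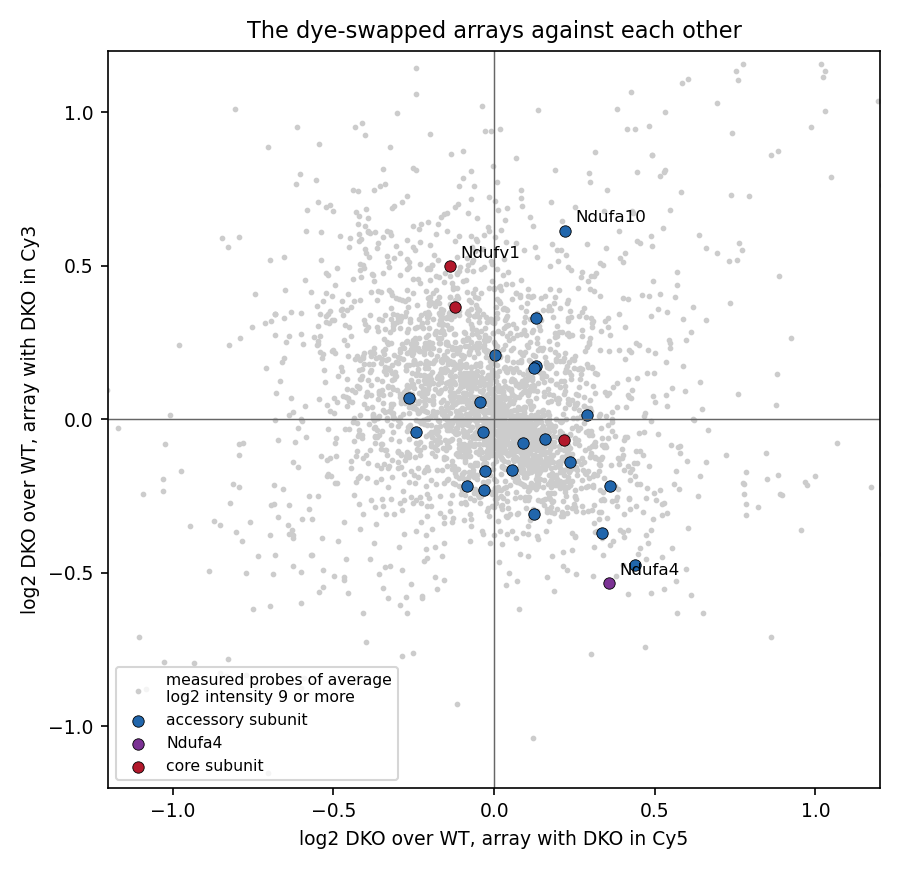
Log2 DKO over WT on the array with DKO in Cy3 against that on the array with DKO in Cy5, for 25 measured Nduf probes (coloured by class) and the bright probes (grey, with 34 outside the axes at 1.2). Ndufv1 and Ndufa4 lie in the quadrants of opposite sign and Ndufa10 in the upper right one.

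The class medians differed on each array and in opposite directions, while the ranges overlapped. The median of the 3 core probes was −0.12 with DKO in Cy5 and 0.37 with DKO in Cy3, and that of the 21 accessory probes was 0.12 and −0.07. The core median minus the accessory median was thus −0.25 on the first and 0.43 on the second, and 0.12 on the mean of both, where the medians were 0.12 and 0.01. In the dye direction the core median was −0.24 and the accessory median 0.07. Of the core probes 2 of 3 were lower on the first array and higher on the second. That direction held for 30.2% of all measured and 32.4% of bright probes. Ndufs7 did the reverse, as did 8 of 21 accessory probes (38.1%), against 32.5% of all measured and 29.4% of bright probes. The core probes ran from −0.14 to 0.22 on the first array, inside the accessory range of −0.26 to 0.44. On the second they ran from −0.07 to 0.50, inside −0.47 to 0.61. The core gene Ndufs1, listed under another name and described below, read 0.03 and 0.17 and is not among the 3. The difference between the class medians changed sign between arrays, and with 3 core probes it was not tested.

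Genes that now have an Nduf symbol but another name in the array files added 24 probes of 19 genes, 16 of them genes that the rule lacks, and 23 of the probes were measured. Their median was 0.00, with 3 (13.0%) higher on both arrays, 2 (8.7%) lower, 18 opposite, and none past 0.32 on the mean. Of all measured probes 19.5% were higher and 17.8% lower on both arrays. The core subunit Ndufs1, which carries iron-sulfur clusters near the NADH site, had log2 intensities of 12.52 and 12.53 in DKO fat, against 12.48 and 12.36 in WT fat, a log2 difference of 0.10 ± 0.10, and its other probe was not measured. Of all subunits added in this way Ndufa11, of the membrane arm, was highest, at 0.24 on each array.

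The assembly factors Ndufaf1 to Ndufaf7 were measured by 8 probes with means from −0.07 to 0.06 and a median of −0.02. Ndufaf1, which helps to build the membrane arm, had log2 intensities of 8.74 and 9.20 in DKO fat, against 8.97 and 8.86 in WT fat, a log2 difference of 0.06 ± 0.40. Ndufaf3, which with Ndufaf4 helps to form the part that reaches ubiquinone, averaged −0.07 ± 0.36, and the brighter of the 2 Ndufaf4 probes read −0.04 and −0.03, the only one to keep its direction, while the dimmer averaged 0.02 ± 0.11. Ndufaf6 averaged −0.00 ± 0.08. Ndufaf2 (−0.06 ± 0.21), Ndufaf5 (−0.06 ± 0.12) and Ndufaf7 (0.01 ± 0.17), of which the last 2 modify core subunits, changed sides between arrays. Of the 8 probes 6 (75%) were lower on the first array and higher on the second. That direction held for 30.2% of all measured and 32.4% of bright probes.

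Assembly factors without the Nduf name were found for 11 of 12 listed genes, by 15 measured probes. Their median was 0.03, with none past 0.32 on the mean. On both arrays 4 (26.7%) were higher and 4 (26.7%) lower, against 19.5% and 17.8% of all measured probes. Both probes of Dmac1 were lower in DKO on both arrays, at −0.21 ± 0.06 and −0.20 ± 0.11. Tmem70 averaged 0.20 ± 0.16 and Ecsit, a partner of Ndufaf1, 0.05 ± 0.48. Of the 7 complex I subunits that mitochondrial DNA encodes, none matched a probe used here.

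The other respiratory complexes, II to V, had 52 measured probes with a median of 0.05. Of these 15 (28.8%) were higher on both arrays, 5 (9.62%) lower and 32 opposite, where complex I had 6 and 5 of 26 and bright probes 19.3% and 18.9%. By the rule of 0.32 with both arrays on the same side, 4 of 52 (7.69%) were higher and 0 lower, against 4.94% and 3.95% of bright probes. The 4 were Cyc1 of complex III (0.36 ± 0.09), Cox6a2 of complex IV, a form found mainly in muscle and brown fat (0.59 ± 0.39), and Atp5b (0.39 ± 0.39) and Atp5g1 (0.34 ± 0.36) of ATP synthase. The second probes of those last 2 genes averaged 0.31 ± 0.44 and −0.07 ± 0.05. The 7 listed regulators of mitochondrial genes had 14 measured probes with a median of 0.11. On both arrays 6 (42.9%) were higher and 1 (7.14%) lower, against 19.5% and 17.8% of all measured probes, and 7 were opposite. By the rule of 0.32, 3 (21.4%) were higher, against 1.18% of all measured and 4.94% of bright probes. Among these regulators Ppargc1a, a coactivator of mitochondrial genes in brown fat, had log2 intensities of 9.10 and 9.13 in DKO fat by 1 probe. In WT fat that probe had 8.58 and 8.56 (0.54 ± 0.04), and another probe averaged 0.14 ± 0.07. Ppargc1a is also on the brown adipocyte list below. Both probes of Ppargc1b, a related coactivator, averaged 0.43 and made up the rest of those 3. Nrf1, the factor whose site is searched for below, averaged −0.10 ± 0.09 and was the probe lower on both arrays. It was dim, with an average log2 intensity of 6.31, and the scanner software's own ratios lay on opposite sides of 0, at −0.44 and 0.08. Esrra, an estrogen-related receptor, averaged 0.15 ± 0.56 and −0.08 ± 0.29, and Tfam, which maintains mitochondrial DNA, 0.20 ± 0.35 and −0.03 ± 0.11.

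Markers of several cell types stood apart more than complex I did. Of 32 measured skeletal muscle probes (25 of 28 listed genes) 22 (68.75%) were higher in DKO on both arrays and 2 (6.25%) lower, with a median of 0.33. That median was 0.19 on the first array and 0.52 on the second. The 2 lower probes were both of Myh7 (−0.31 ± 0.16 and −0.27 ± 0.20). Another 8 lay on opposite sides of 0, Tnnt1 (−0.29 ± 0.61) among them. Of all measured probes 19.5% were higher and 17.8% lower on both arrays. By the rule of 0.32, 16 muscle probes (50%) were higher, against 1.18% of all measured and 4.94% of bright probes. The summed intensities of the muscle probes were 30906 and 35601 in DKO fat, against 24185 and 22103 in WT fat. Brown adipocyte markers had a median of 0.18 over 19 probes, with 12 (63.2%) higher and 1 (5.26%) lower on both arrays, beside the same shares of all measured probes. By the rule of 0.32, 9 of the 19 (47.4%) were higher, against 1.18% of all measured and 4.94% of bright probes. The 2-fold rule was passed by 3, against 0.0987% and 0.559%. These were probes of Dio2 (1.89 ± 0.32), Elovl3 (1.02 ± 0.02) and Slc27a2 (1.09 ± 0.10), whose other probes averaged 0.37 ± 0.08 and 0.06 ± 0.06. The brown adipocyte sums were 172860 and 165760 in DKO fat, against 151563 and 140910 in WT fat. Of the 19 probes 1, that of Cidea, was saturated. The sums over the Nduf probes were 187488 and 169069 in DKO fat, against 174980 and 184002 in WT fat. These overlapped, while the muscle and brown adipocyte sums did not. Sums give most weight to bright probes. Among those of the brown adipocyte list, Ucp1 (0.73 ± 0.00) and Fabp3 (0.84 ± 0.14) were higher. Cox7a1 averaged 0.18 ± 0.19 and Cox8b 0.01 ± 0.30, and Cidea was lower (−0.14 ± 0.02). The brown adipocyte sums therefore do not stand for that list as a whole. Erythroid markers had a median of −0.35 over 4 measured probes, with 2 lower by the rule of 0.32, against 0.972% of all measured and 3.95% of bright probes. Those 2 were bright probes, of Hba-a1 (−0.46 ± 0.10) and Hbb-b1 (−0.50 ± 0.09). Alas2 (−0.23 ± 0.36) and Slc4a1 (−0.03 ± 0.06) changed sides between arrays. White adipocyte markers had a median of 0.00 over 6 measured probes, but 1 of them, that of the hormone leptin (Lep), was lower at −1.08 ± 0.42, past the 2-fold rule, and Agt stood at 0.30 ± 0.07. Macrophage and endothelial markers each had a median of 0.02, with none past the rule of 0.32. Every muscle and brown adipocyte probe was well above background in at least 1 genotype. The part of these cells in the complex I values was not tested.

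**Figure D4:**
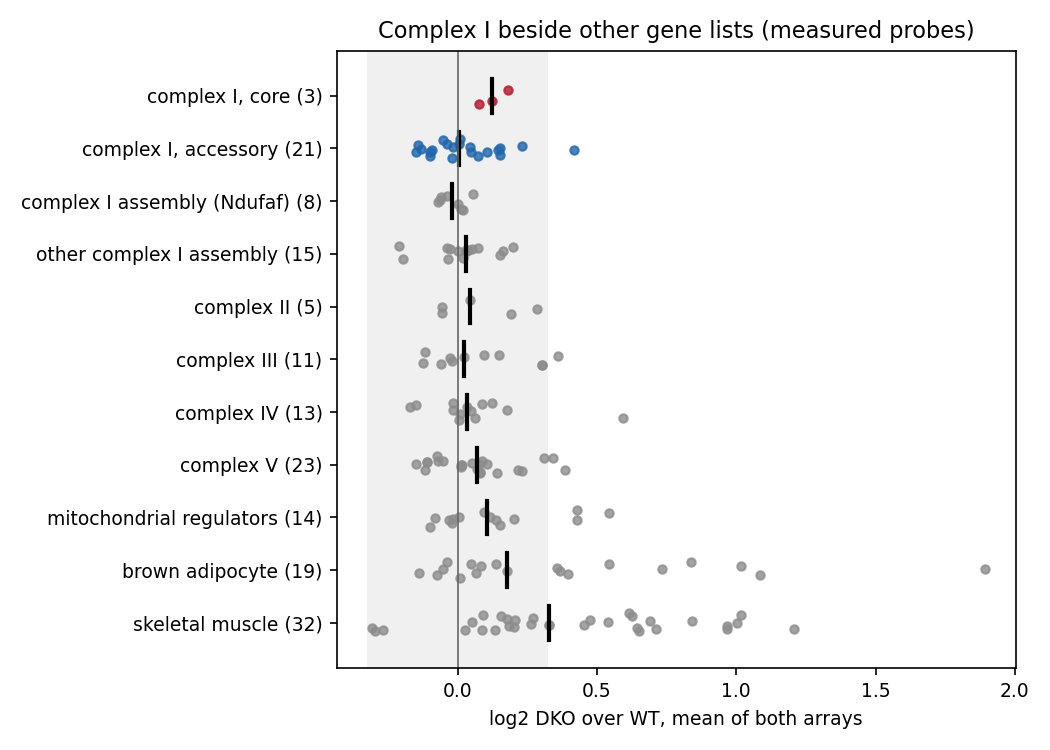
Mean log2 DKO over WT of measured probes in complex I classes and in other lists (number of probes in brackets), with black bars at each median and a grey band from −0.32 to 0.32. Complex I probes lie mostly within the band, while the skeletal muscle list, with a median of 0.33, and the brown adipocyte list reach beyond it.

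Promoter windows, from 250 bases before to 50 after the start of transcription, were read from RefSeq on build GRCm38.p6 for 21 of the 23 genes (23 windows). Shown are Ndufa10, whose probe passed 0.32, Ndufb4, with the most matches, and the core gene Ndufs8, with capitals for matches to the motifs described below. They lie on the minus strand at chr1:92473709-92474008, chr16:37654319-37654618 and chr19:3912725-3913024, in that order.
Ndufa10: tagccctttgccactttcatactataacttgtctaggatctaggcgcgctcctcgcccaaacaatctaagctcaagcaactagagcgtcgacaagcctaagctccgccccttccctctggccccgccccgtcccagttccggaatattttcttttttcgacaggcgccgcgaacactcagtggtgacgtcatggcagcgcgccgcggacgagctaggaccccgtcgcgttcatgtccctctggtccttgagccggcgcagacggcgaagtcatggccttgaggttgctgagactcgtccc
Ndufb4: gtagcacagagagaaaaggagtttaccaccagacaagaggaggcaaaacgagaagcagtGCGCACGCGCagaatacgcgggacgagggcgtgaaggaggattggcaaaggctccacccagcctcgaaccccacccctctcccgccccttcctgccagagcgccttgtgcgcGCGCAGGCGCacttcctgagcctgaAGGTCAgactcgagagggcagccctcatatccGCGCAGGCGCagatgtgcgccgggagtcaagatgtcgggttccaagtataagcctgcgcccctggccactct
Ndufs8: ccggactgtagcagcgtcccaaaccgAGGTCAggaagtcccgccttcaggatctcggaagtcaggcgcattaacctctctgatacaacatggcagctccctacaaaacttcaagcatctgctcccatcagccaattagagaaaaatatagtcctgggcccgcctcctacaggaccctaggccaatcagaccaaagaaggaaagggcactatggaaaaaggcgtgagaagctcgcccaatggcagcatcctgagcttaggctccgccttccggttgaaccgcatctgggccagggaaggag

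The motifs were searched on both strands. The site of the nuclear respiratory factor NRF1 in its exact, palindromic form was in 0 of 23 windows and in 0.971% of all 32851. With any base allowed in its centre, which also takes in the exact form, 6 windows of 5 genes (26.1%) matched, against 4.6% of all windows. In the Ndufb4 window these are the 3 longer runs of capitals. The other genes were Ndufa6, Ndufa8, Ndufs5 and Ndufa5, whose overlapping windows hold the same site, which was counted in both. The means of the 5 genes' probes ran from −0.15 to 0.15 on the log2 scale. The site of the estrogen-related receptors, TCAAGGTCA, and the ROR response element, which is AGGTCA after an A- and T-rich stretch, were in 0 of the 23 windows, against 0.423% and 0.219% of all. The hexamer AGGTCA alone, which lies within both, was in 5 windows (21.7%), those of Ndufs8, Ndufs5, Ndufa5, Ndufb2 and Ndufb4, against 16.3% of all. The Ndufa10 window held none of these letters. A match is a description of the sequence only, and its absence says only that these letters are not in the window.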

How the data were processed

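RNA of brown fat from DKO and WT mice was measured on 2 dye-swapped Agilent arrays. Images were read by the authors in Agilent Feature Extraction 7.5, per the submitters' processing notes. The deposited spot files hold spot and local background intensity on a linear scale, not normalised, per the file headers. They also hold the authors' log10 ratio of red over green, with spatial detrending and normalisation of the dyes applied, per the file headers, and flags for outlier, saturated and well-above-background spots (2.6 background SDs), which were used unchanged. In the series value table as deposited, log2 ratios matched red over green from the spot files within 0.001 for 40962 of 41001 and 41101 of 41141 values, and both columns had a median of 0. The series' design text names Rosetta Resolver for later handling, and what it did to that table is unknown from the sources used here.

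Mean spot signals were corrected by normexp (offset 50) and normalised by loess inside every array, control spots having weight 0 (limma 3.58.1, R 4.3.3). The offset shrinks ratios of dim probes. Ratios of the second array (DKO in Cy3) had their sign turned before both were averaged. Outlier spots were left out (171 and 29), saturated ones kept (12 and 14), and spots of a probe averaged. Levels per genotype came from quantile normalisation of the average intensities between arrays, which leaves the ratios as they are; no probe's level was set against another's. The 2 arrays limit the precision. The steps were tested on simulated data with planted changes of 2-fold or more, larger than any Nduf mean here. Recovery of smaller differences was not tested.

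Probes were named through the RefSeq gene table of GRCm38.p6, with 20 member probes matched by accession and 7 by symbol. Core and accessory classes, gene lists and members were chosen with earlier results of these data known. Every core, assembly factor and Ndufa4 probe, every probe of a gene with several, and every accessory probe past 0.32 on the mean (or, with none, the 6 highest and 6 lowest) were to be named; other accessory probes, and the genes of other lists, were chosen after their values were seen. Some items that this rule or the labels name are not reported here, and the core subunits are compared without them. Alternatives changed the normexp offset to 16, the signal summary, the normalisation, the dim filter, the table used, the choice of members or the number of arrays. Counts and figures were made in Python 3.11.15 (matplotlib 3.10.9, pandas 2.3.3, numpy 2.4.6).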

Additional observations from a re-analysis of the deposited data

How the results depend on the processing

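Of 99 alternative values of the medians and counts, 88 stayed within the spread between arrays or within 1.5 times the main count. With median centring in place of loess the Nduf median was 0.17 in place of 0.03, 0 probes in place of 5 were below 0 on both arrays, and 4 in place of 1 were higher by 0.32 or more. Bright probes as a whole had a median of 0.14 under that setting, and the Nduf median minus theirs was 0.03, against 0.02 with loess. On 1 array alone, 11 to 16 probes were above 0, 10 to 15 below 0, 4 to 5 higher by 0.32 or more and 1 to 3 lower by as much; by construction such counts need no second array. Ndufa10 ran from 0.41 to 0.56 with both arrays and was 0.22 and 0.61 on single ones. The Nduf median was −0.05 to 0.11 on single arrays, and 4 of the 8 single-array medians (all Nduf, core, accessory and assembly factor probes) had the other sign, as did the assembly factor median under median centring (0.07). Of 150 alternative values of single probes, 9 moved beyond the spread between arrays, 6 of them of Rora. The sign turned in 6 of 120 values with both arrays, 4 of them under median centring, and in 11 of 30 on 1 array; Ndufa10 and Rora kept theirs. The cause of the other shifts was not tested. No paired analysis was possible because the arrays, whose extracts may be shared, were counted as 1 preparation per genotype, and so no p-value is given.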
